A study of Mus musculus with 6 samples.

Results

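The nuclear-encoded subunits of the mitochondrial respiratory chain and of ATP synthase were examined in primary mouse dermal fibroblasts with and without Et1. The members were the genes whose array annotation gave a probe set (a group of short probes for 1 transcript) exactly 1 symbol of the Nduf, Sdh, Uqcr, Cox4 to Cox8 or Atp5 families. Each gene was represented by its brightest probe set over the 6 arrays. This gave 81 genes of 18193 with such a probe set, from 164 probe sets. They divided into 35 genes of complex I, 4 of complex II, 8 of complex III, 17 of complex IV and 17 of complex V.

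The fibroblasts were grown out of the dermis of B6 pups, 0 to 2 days old per the sample labels and up to 3 days old per the series design, with both sexes mixed, and were recorded at passage 6 in the labels, while the design gives a split into treated and untreated cultures by passage 5. Control cultures received nothing, and Et1 cultures received 100 nM of the synthetic peptide endothelin 1 (Et1), which acts through G-protein-coupled receptors, for 24 hours. The medium of all cultures held high glucose and 10% serum. Each group had 3 arrays. The labels give them as biological replicates but name no animals or litters, so the p-values measure the spread between these arrays. RNA was measured on Affymetrix Mouse430_2 arrays, and all signals below were scaled to a common level.

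The respiratory chain carries electrons from NADH (through complex I) and from succinate (through complex II) to complex III, then by cytochrome c to complex IV, which reduces oxygen. Complexes I, III and IV pump protons across the inner mitochondrial membrane, and complex V, the ATP synthase, uses the returning protons to make ATP. All complexes except complex II combine subunits of the mitochondrial genome, which were not analysed here, with the nuclear-encoded ones described here. Transcripts of the nuclear-encoded subunits are often described as controlled together by the factors NRF1 and GABP, which bind near their start sites.

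Some subunits hold motifs of these factors near their start sites. The RefSeq table (GRCm38.p6) held start-site sequences for 66 of the 81 genes. Within the 250 bases before a start site, the letters GCATGCGC, the core of the NRF1 motif, stood on either strand for 7 of these 66 genes (10.6%), against 2.56% of all 27025 genes in the table. The letters CCGGAAG, the motif of ETS factors such as GABP, stood there for 12 of 66 (18.2%), against 7.83% of all genes. AAGATGGC, a YY1 motif, stood there for 1 of 66, CAGCTG, the E-box bound by muscle factors, for 6 of 66 and the TATA box letters TATAAA for 7 of 66. For these 3 motifs the shares of all genes were 1.83%, 14.7% and 14.3%. The median G and C content of these windows was 56.4% for the subunits and 52.4% for all windows in the table. The windows of 3 genes are shown, chosen after their values were seen: those of Ndufa10 and Atp5k, which had the highest difference of complex I and the lowest of complex V in the comparison below, and that of Cox6a1, the common partner of Cox6a2, which had the highest of complex IV. Capitals mark NRF1 and ETS letters. The windows lie at chr1:92473759-92474008 (minus strand), chr5:108434400-108434649 (minus strand) and chr5:115348959-115349208 (minus strand).
Ndufa10: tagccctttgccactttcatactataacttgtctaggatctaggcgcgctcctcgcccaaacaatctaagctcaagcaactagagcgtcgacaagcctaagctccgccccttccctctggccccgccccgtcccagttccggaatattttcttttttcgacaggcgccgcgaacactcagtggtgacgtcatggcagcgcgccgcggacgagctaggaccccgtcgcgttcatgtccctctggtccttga
Atp5k: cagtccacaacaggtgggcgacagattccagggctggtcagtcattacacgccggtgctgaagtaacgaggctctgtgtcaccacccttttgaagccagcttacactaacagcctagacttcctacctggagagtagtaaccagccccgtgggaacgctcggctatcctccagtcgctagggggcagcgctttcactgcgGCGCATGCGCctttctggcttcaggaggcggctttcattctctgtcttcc
Cox6a1: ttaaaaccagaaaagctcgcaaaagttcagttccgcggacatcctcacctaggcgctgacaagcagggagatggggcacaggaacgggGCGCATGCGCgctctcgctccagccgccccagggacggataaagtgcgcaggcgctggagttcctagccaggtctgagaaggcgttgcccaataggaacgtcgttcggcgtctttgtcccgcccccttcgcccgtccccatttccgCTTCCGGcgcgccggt
In the windows of Atp5k and Cox6a1 the NRF1 letters on one strand overlapped those on the other, starting at -50 and -48 in Atp5k and at -162 and -160 in Cox6a1, counted from the start site. Cox6a1 also held the ETS letters at -16. The Ndufa10 window held no exact match to the NRF1, ETS or YY1 letters.

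The arrays differed in ways that bear on these genes. Their deposited 2% trimmed means ran from 91.7 to 179 before scaling. They also fell apart on the probe sets for poly(A) spike-in controls, which detect Bacillus transcripts used to follow labelling. A low set (Et1 replicate 2 with control replicates 1 and 2) had a mean log2 signal of 3.45 to 3.57 on these controls. A high set (Et1 replicates 1 and 3 with control replicate 3) had one of 4.75 to 5.64. The labels name no such sets, which were read from these controls alone. The means of the low set lie under the log2 of the signal filter of 41.0 used below, and those of the high set near it. The ratio of 3' to 5' signal, a measure of RNA integrity, was 0.677 to 0.775 for Gapdh and 1.15 to 1.23 for Actb. Of 9 fibroblast markers 8 lay above the filter on signal, among them Vim at 8654 and Col1a2 at 5959 in control arrays, and Lum did not. Of these 8, 7 had lower means in Et1 arrays (median log2 difference -0.71), and their summed signal with Lum was 20592 to 34699 on control and 14701 to 26558 on Et1 arrays. Their part in the results was not tested. Of 6 keratinocyte markers 5 lay above the filter, of 5 endothelial markers 2 and of 6 macrophage and leukocyte markers 4, and the endothelial Pecam1 and Tie1 and the leukocyte Ptprc and Cd3e lay below it. The highest signals on any array were 169 (Krt5), 83.9 (Kdr) and 178 (Csf1r) for these 3 lists. Of 6 adipocyte markers 4 were on the array and 1 lay above the filter, at a log2 difference of -1.06. Of 6 Schwann and melanocyte markers the 4 on the array lay above it, 2 higher and 2 lower in Et1 arrays. For 1 of those 4 all Et1 signals lay below the controls.

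No respiratory chain subunit passed the threshold between Et1 and control cultures, and most differences were small and upward. Of the 76 subunits above the filter on signal, 58 had a higher and 18 a lower mean in Et1 arrays (76.3% higher, against 55.7% of all 11666 genes tested). The median log2 difference of the 76 was 0.09, against 0.05 for all genes tested. With each array centred on its median instead, 49 of 76 were higher. That centring also moved the median of all tested probe sets, from 0.03 to -0.02. In the limma fit over all probe sets, 0 of 76 passed an adjusted p of 0.05 (0.346% of all probe sets and 48 of the 11666 genes did). The smallest adjusted p was 0.117, for Cox6a2. At an unadjusted p under 0.05 there were 4 by their brightest probe sets, or 5.26%, against 13.5% of all genes tested. Cox6a2, Uqcrq and Ndufa10 were higher and Atp5k lower. Uqcr10 and Cox6c each had another, dimmer probe set under 0.05, given below. The 3 Et1 signals lay all above the 3 control signals for 8 subunits (10.5%, against 10.7% of genes) and all below for 2 (2.63%, against 8.49%). These shares were at or under those of all genes.

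The intervals set bounds on the changes. For 53 of the 76 subunits (69.7%) the 95% interval of the difference, taken gene by gene, lay within 1.5-fold in either direction, against 27.7% of all genes tested. The standard error of the log2 difference had a median of 0.16 for the subunits and 0.21 for all genes. The fit lets the error depend on signal, and the other genes were not matched to the subunits by signal. The 2 shares are therefore not a comparison at like brightness. Among dim subunits, Cox4i2 (mean signal 53.4) had a standard error of 0.29 and Cox7a1 (mean signal 42.4) one of 0.38.

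**Figure D1:**
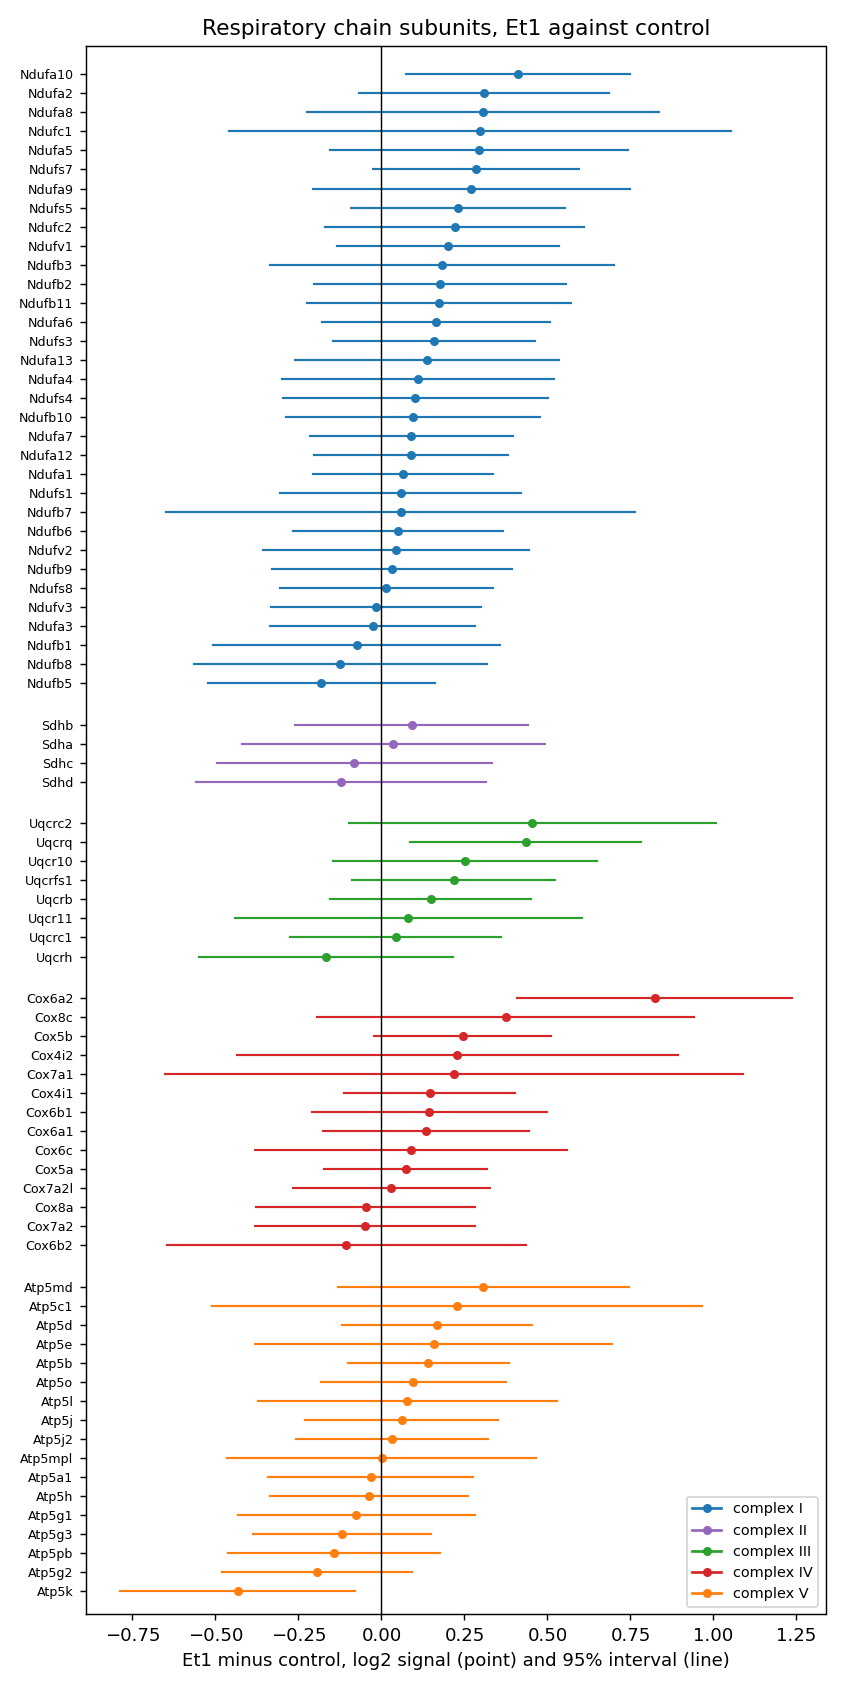
Difference in log2 signal between Et1 and control arrays for each of the 76 tested subunits, by complex, as points with 95% intervals (lines; 3 arrays per group). Most points lie between -0.2 and 0.3, with Cox6a2 the highest at 0.82 and Atp5k the lowest at -0.43.

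By complex, the median log2 difference was 0.11 for complex I (28 of 33 tested subunits higher), -0.02 for complex II (2 of 4), 0.18 for complex III (7 of 8), 0.14 for complex IV (11 of 14) and 0.03 for complex V (10 of 17). Differences between the complexes were not tested. Within the low spike-in set, which holds 1 Et1 and 2 control arrays, the medians were 0.17, 0.11, 0.21, 0.09 and 0.02 for complexes I to V. Within the high set, with 2 Et1 arrays and 1 control array, they were -0.04, -0.21, 0.08, 0.06 and -0.14. Thus complexes III and IV had a positive median in both sets, and complexes I, II and V changed sign. Over all genes tested the medians within the sets were 0.03 and 0.04.

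The level of the subunits on each array showed which arrays set these medians. Relative to each gene's own mean over the 6 arrays, the median subunit stood at -0.10 and -0.16 on control replicates 1 and 2 but at 0.15 on control replicate 3. On the Et1 arrays it stood at 0.12, -0.02 and 0.06. Control replicate 3 was thus the highest and control replicate 2 the lowest of the 6 arrays, and the groups overlapped. The same values for the median of all genes tested ran from -0.02 to 0.06. Without control replicate 3 the median difference of the subunits was 0.19, with 65 of 76 higher, and without control replicate 2 it was 0.04, with 45 of 76 higher.

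**Figure D2:**
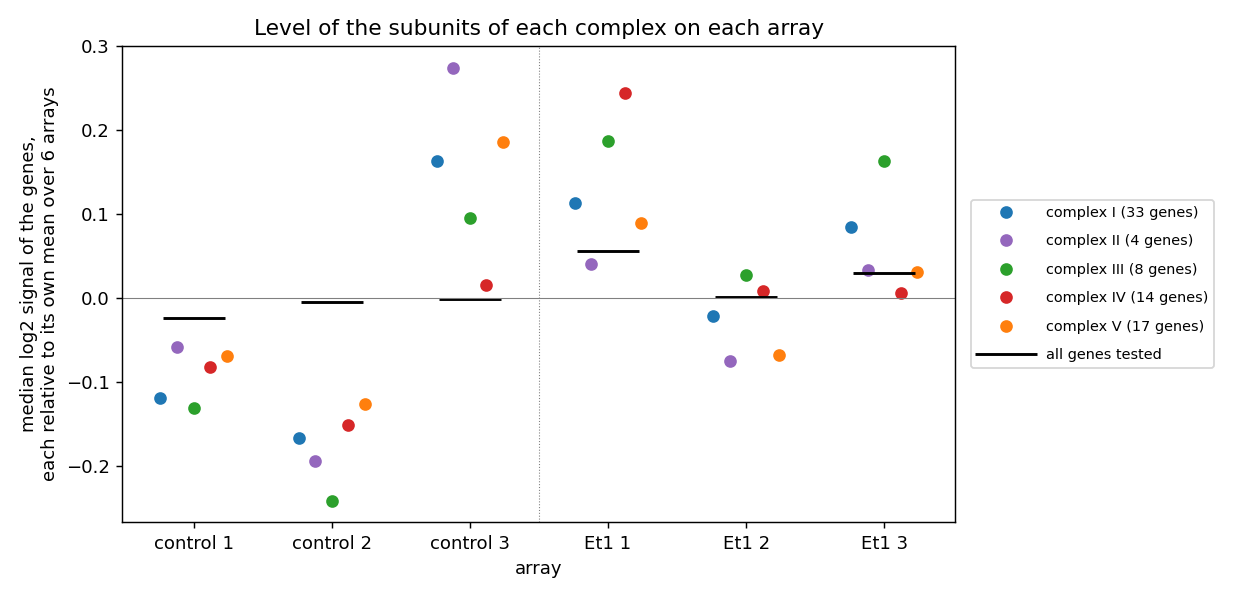
Median log2 signal of the tested subunits of each complex on each array, each gene taken relative to its own mean over the 6 arrays (points), with the same for all genes tested (black bars). Control replicates 1 and 2 lie below 0 for all 5 complexes, while control replicate 3 lies above 0 for all 5.

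The spike-in set moved with more of the subunits than Et1 did. With the group in the fit, 18 of 76 subunits differed between the high and low sets at a limma adjusted p under 0.05 (23.7%, against 17.3% of all genes tested). All 18 were higher in the high set, while 902 of the 2022 genes called over the whole array were. Subunits called higher were thus 23.7% of those tested, against 7.73% of all genes tested. In all, 60 of 76 subunits had higher means in the high set (54.6% of all genes did), with medians of 0.19, 0.34, 0.24, 0.07 and 0.14 for complexes I to V. The largest such differences were in Atp5c1, the central stalk of ATP synthase, at 0.93 (limma adjusted p = 0.00058), in Ndufc1 at 0.84 (limma adjusted p = 0.01) and in Ndufb7 at 0.84 (limma adjusted p = 0.00245), both accessory subunits of complex I. These 3 genes were chosen after their values were seen. Atp5c1 had signals of 1544, 1319.8 and 2800.1 in the control arrays and 2512, 1387 and 2633 in the Et1 arrays, so that 3 arrays lay above 2500 and 3 below 1550. With the set as a block in the fit, 2 of 76 subunits passed the threshold between Et1 and control, Cox6a2 and Ndufa10. These were 2.63%, against 3.85% of all probe sets and 521 of the 11666 genes. In that fit 44 of 76 had higher means (57.9%, against 55.6% of all genes tested). The medians of complexes I to V in that fit were 0.06, -0.05, 0.14, 0.08 and -0.08, so that of complex V changed sign.

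**Figure D3:**
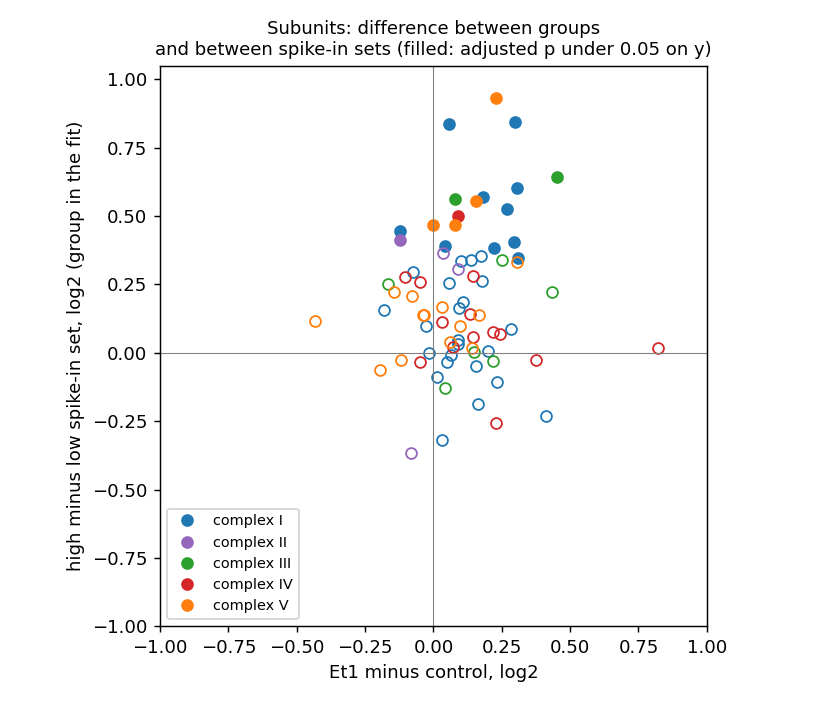
Each tested subunit by its log2 difference between Et1 and control (x) and between the high and low spike-in sets with the group in the fit (y), coloured by complex and filled where the y difference had an adjusted p under 0.05. All 18 filled points lie above 0 on y, and Cox6a2, at 0.82 on x, lies near 0 on y.

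Complex I takes electrons from NADH, and its tested subunits ran from -0.18 to 0.41. The core subunits measured, Ndufs1, Ndufs3, Ndufs7, Ndufs8, Ndufv1 and Ndufv2, which hold the flavin and iron-sulphur centres or lie beside them, all had higher means in Et1 arrays, with a median of 0.11. With the spike-in block Ndufs1 and Ndufv2 were lower, and with median centring Ndufs8 and Ndufv2. The 27 accessory subunits, with Ndufa4 counted here by its name, had the same median of 0.11, with 22 higher. Ndufa10, an accessory subunit of the membrane arm, had signals of 1131, 1277 and 1004 in the control arrays and 1519, 1653 and 1357 in the Et1 arrays. Each Et1 signal exceeded each control signal. The log2 difference was 0.41 (SE 0.15, limma adjusted p = 0.313), with a 95% interval of 0.07 to 0.75. It was 0.46 on the low spike-in arrays and 0.52 on the high ones. With the set as a block it was 0.49 and passed the threshold (limma adjusted p = 0.0341, in a range of 0.0341 to 0.76 over the settings tried).

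Ndufs7, which carries the last iron-sulphur cluster before ubiquinone, had signals of 656, 686 and 742 in the control arrays and 905, 835 and 798 in the Et1 arrays. The groups did not overlap, and the log2 difference was 0.28 (SE 0.14, limma adjusted p = 0.445). Ndufs5, an accessory subunit, read 965, 918 and 984 in the control arrays and 1103, 1276 and 1002 in the Et1 arrays. Its lowest Et1 signal was just above its highest control signal, at a log2 difference of 0.23 (SE 0.14, limma adjusted p = 0.555). Ndufa2, another accessory subunit, had signals of 1098, 1045 and 1439 in the control arrays and 1565, 1295 and 1551 in the Et1 arrays, which overlapped through control replicate 3. Its log2 difference was 0.31. Ndufb5, at the other end, read 1104, 979 and 1329.6 in the control arrays and 997, 1016 and 975 in the Et1 arrays, with overlap and a log2 difference of -0.18 (SE 0.15, limma adjusted p = 0.666). Ndufa4, which is named for complex I but is now counted with complex IV, had a log2 difference of 0.11 (95% interval -0.30 to 0.52).

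Complex II is succinate dehydrogenase, the 1 enzyme shared by the chain and the citric acid cycle, and none of its 4 subunits separated the groups. Sdha, which holds the flavin, had signals of 1003, 946 and 1559 in the control arrays and 1116, 1141 and 1253 in the Et1 arrays, and the highest and lowest were both control arrays. Sdhb, with the iron-sulphur centres, read 1509, 1489.8 and 1903 in the control arrays and 1921, 1528 and 1764 in the Et1 arrays. The membrane anchors Sdhc and Sdhd stood at 970.2 ± 98.5 in control and 928 ± 206 in Et1 arrays (SD, n = 3) and at 847 ± 173 in control and 773 ± 116 in Et1 arrays (SD, n = 3). The log2 differences were 0.04, 0.09, -0.08 and -0.12 for Sdha to Sdhd, and all 4 intervals lay within 1.5-fold.

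Complex III passes electrons from ubiquinol to cytochrome c, and in this fit its subunits had the highest median of the 5 complexes. Uqcrq, a small subunit needed for assembly of the complex, had signals of 1251, 1408 and 1766 in the control arrays and 1963, 1942 and 2014 in the Et1 arrays. The 3 Et1 signals were close to each other and above all controls, and the log2 difference was 0.43 (SE 0.15, limma adjusted p = 0.3). It was 0.55 on the low spike-in arrays and 0.17 on the high ones. The probe set is of a kind shared by several transcripts. The 3 other tested probe sets of Uqcrq, all with mean signals under 65, stood at 0.25, -0.11 and 0.93. Uqcrc2, a core protein of the matrix side, read 901, 1021 and 1555 in the control arrays and 1806, 1174 and 1734 in the Et1 arrays. These values overlapped and followed the spike-in set, with a log2 difference of 0.45 between groups and 0.64 between sets (limma adjusted p = 0.00285 for the sets). The other probe set of Uqcrc2, with a mean signal of 1172, stood at 0.35 between groups (limma unadjusted p = 0.069). It read 851, 1111 and 1140 in the control arrays and 1164, 1285 and 1479 in the Et1 arrays, with no overlap.

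Uqcrfs1, the Rieske iron-sulphur protein, had signals of 1235 ± 77.0 in control and 1438 ± 131 in Et1 arrays (SD, n = 3), and Uqcr10, a small accessory subunit, of 953 ± 162 in control and 1132 ± 161 in Et1 arrays (SD, n = 3). Their log2 differences were 0.22 and 0.25. Other probe sets of Uqcr10 stood at 0.98 (limma unadjusted p = 0.00737) and 0.45 (limma unadjusted p = 0.0536), with mean signals of 130 and 254. In the first of these all Et1 signals lay above the controls. Uqcrh, the hinge protein that helps bind cytochrome c1, was the 1 subunit of complex III with a lower mean, at 1591, 1472 and 2019.5 in the control arrays and 1347, 1425 and 1741 in the Et1 arrays and a log2 difference of -0.17 (SE 0.17, limma adjusted p = 0.727).

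Complex IV, cytochrome c oxidase, has several subunits encoded by paired genes, 1 for most tissues and 1 for particular tissues. Cox6a2, the heart and skeletal muscle form of subunit VIa, had the largest difference of all 76 tested subunits. Its signals were 86.6, 90.2 and 92.7 in the control arrays and 185, 161 and 134 in the Et1 arrays, so the Et1 signals all lay well above controls that differed little from each other. The group values were 89.8 ± 3.08 in control and 160.2 ± 25.4 in Et1 arrays (SD, n = 3), a fold of 1.77 and a log2 difference of 0.82 (SE 0.18, limma adjusted p = 0.117), with a 95% interval of 0.41 to 1.24. It was 0.87 on the low spike-in arrays and 0.77 on the high ones. With the set as a block it was 0.82 and passed the threshold (limma adjusted p = 0.039, in a range of 0.039 to 0.455 over the settings tried). Its other probe set lay below the filter, so the difference rests on 1 probe set.

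Its partner Cox6a1, the form of most tissues, whose window is shown above, had signals of 4331, 4217 and 4867 in the control arrays and 5733, 4676 and 4374 in the Et1 arrays. They overlapped, at a log2 difference of 0.13 (95% interval -0.18 to 0.44). Whether the 2 forms differed in their response was not tested. Among 10 skeletal muscle markers, Myod1, Myog, Myf5, Pax7, Myh3 and Myh8 lay below the filter and Acta1, Ckm, Des and Mylpf above it. Summed over all 10, the signal lay between 2441 and 2744 on control arrays and between 2901 and 3128 on Et1 arrays, most of it from Acta1 at 2344 ± 174 in control and 2717 ± 86.7 in Et1 arrays (SD, n = 3). Ckm, muscle creatine kinase, stood at 68.2 ± 21.6 in control and 107 ± 36.9 in Et1 arrays (SD, n = 3). Of the 4 markers above the filter, 2 had higher and 2 had lower means in Et1 arrays, with a median log2 difference of 0.07. None of these markers passed the threshold, and their part in the difference of Cox6a2 was not tested.

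**Figure D4:**
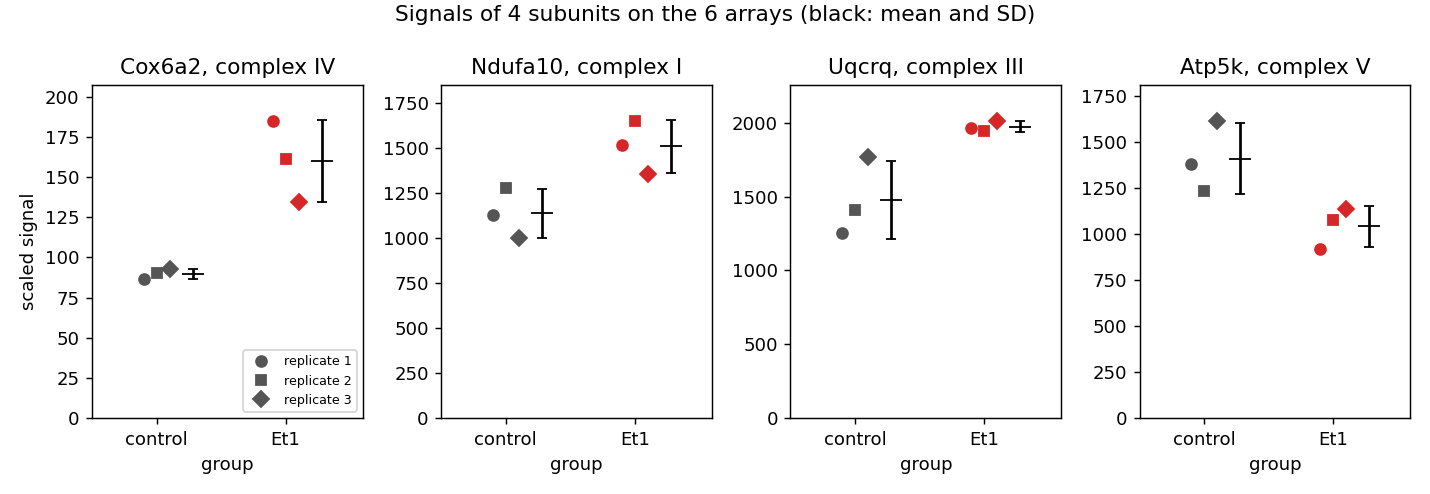
Scaled signals of the 4 subunits whose brightest probe set had an unadjusted p under 0.05 on the 3 control (grey) and 3 Et1 (red) arrays. The mean and SD of each group are in black, and each vertical axis starts at 0. The 3 Et1 points lie above all control points for Cox6a2, Ndufa10 and Uqcrq and below them for Atp5k.

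The other paired genes of complex IV had smaller differences. Cox4i1, the common form of subunit IV, read 3096, 2921 and 3311 in the control arrays and 3505, 3466 and 3332 in the Et1 arrays, with no overlap but a small log2 difference of 0.15 (SE 0.11, limma adjusted p = 0.642). Cox4i2, its form in lung and in low oxygen, overlapped between groups, at 49.1 ± 8.69 in control and 57.8 ± 12.3 in Et1 arrays (SD, n = 3). Cox7a1, the muscle form of subunit VIIa, stood at 38.0 ± 2.65 in control and 46.8 ± 20.6 in Et1 arrays (SD, n = 3), and its highest value was on Et1 replicate 1. Cox7a2, the common form, had a log2 difference of -0.05, and Cox7a2l one of 0.03 in its brightest probe set. The other probe sets of Cox7a2l, with mean signals of 993 and 1230, stood at 0.20 (limma unadjusted p = 0.203) and 0.35 (limma unadjusted p = 0.0525). For subunit VIb the differences were 0.14 for Cox6b1 and -0.11 for the testis form Cox6b2, and for subunit VIII -0.05 for Cox8a. Cox8c, a testis form of subunit VIII, read 190.2, 177 and 154 in the control arrays and 328, 204 and 169 in the Et1 arrays, with the highest value again on Et1 replicate 1 and a log2 difference of 0.37 (SE 0.25, limma adjusted p = 0.587).

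Cox5b, a zinc-binding subunit, had signals of 2451, 2394 and 2689.7 in the control arrays and 3092, 2994 and 2835 in the Et1 arrays. All 5 of its tested probe sets had higher means in Et1 arrays, from 0.20 to 0.49, with 0.24 (SE 0.12, limma adjusted p = 0.444) in the brightest. Cox6c, a small membrane subunit, disagreed between probe sets, at 0.09 in the brightest and -0.46 in the other (limma unadjusted p = 0.00755). In that other probe set all Et1 signals lay below the controls. Over all complexes, 41 subunits had more than 1 tested probe set. The sign was shared by all of them for 32 and mixed for 9, and 0 of the 140 tested probe sets passed the threshold.

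Complex V makes ATP in a catalytic head, driven by a ring of c subunits that turns in the membrane. The genes of the catalytic head, Atp5a1 and Atp5b, had log2 differences of -0.03 and 0.14, and those of the central stalk, Atp5c1, Atp5d and Atp5e, of 0.23, 0.17 and 0.16. Of these 5 genes 4 were higher, but only 2, Atp5b and Atp5d, with the spike-in block. Atp5b, the catalytic beta subunit, read 4403, 4028 and 4388 in the control arrays and 4651, 4758 and 4720.0 in the Et1 arrays, with no overlap and a log2 difference of 0.14 (SE 0.11, limma adjusted p = 0.629). The other 12 genes, of the c ring, the stator and the membrane part, had a median of -0.02, with 6 higher (3 with the spike-in block). Among them the 3 genes that encode the same mature c subunit all had lower means, at -0.08 for Atp5g1, -0.19 for Atp5g2 and -0.12 for Atp5g3. Without control replicate 3, Atp5g1 turned to 0.040. Atp5g2 read 1791, 1775 and 1862 in the control arrays and 1564, 1726 and 1463 in the Et1 arrays, with all Et1 signals below the controls.

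Atp5k, the e subunit, which takes part in joining ATP synthase into dimers, had the lowest difference of the 76. Its signals were 1382, 1235 and 1618 in the control arrays and 918, 1076 and 1136 in the Et1 arrays, with no overlap. The log2 difference was -0.43 (SE 0.16, limma adjusted p = 0.312), and it was -0.28 on the low spike-in arrays and -0.66 on the high ones. Its probe set is of a kind whose probes can match other transcripts, and the 2 other tested probe sets of Atp5k stood at -0.16 and 0.07. Atp5md, a small membrane subunit also linked to dimers, read 906, 704 and 1145 in the control arrays and 1242, 1042 and 1068 in the Et1 arrays, with overlap and the highest difference of complex V at 0.31 (SE 0.19, limma adjusted p = 0.566).

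The 5 subunits below the filter were Ndufb4, Ndufa4l2, Cox7b2, Cox7c and Cox8b, and none was tested. Ndufa4l2, a relative of Ndufa4 known to rise in low oxygen, had signals of 63.8, 21.6 and 26.7 in the control arrays and 19.5, 17.8 and 10.4 in the Et1 arrays, all Et1 values being under the controls. Cox7c had signals of 15.2, 14.9 and 23.7 in the control arrays and 37.4, 30.7 and 42.7 in the Et1 arrays, all Et1 values being above the controls. Both had mean signals under the filter of 41.0, and whether their probe sets show the level of these genes was not tested. Cox8b, the muscle form of subunit VIII, read 14.6, 10.5 and 31.4 in the control arrays and 5.28, 19.0 and 22.7 in the Et1 arrays, with overlap, and Cox7b2 stayed under 3 on every array.

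Other genes of the pathway were read from 9 lists of named genes. In these lists, 0 of the 202 tested members passed the threshold in the limma fit (0.346% of all probe sets did); at an unadjusted p under 0.05 there were 18 higher and 6 lower (11.9%, against 13.5% of all genes tested). In the fit blocked on the spike-in set, 8 of 202 passed (3.96%, against 3.85% of all probe sets and 521 of the 11666 genes). Dhodh, Ssbp1, Mrpl38, Mrpl45, Mrps17 and Mrps22 were higher and Pdk1 and Hif1a lower. These 8 were taken from that fit after its values were seen. Assembly factors of complex I had 13 of 15 higher means, with a median of 0.17, and those of complexes II to V had 25 of 33, with a median of 0.18. Over all genes tested, 55.7% had higher means. Foxred1 and Ndufaf1, which help assemble complex I, stood at 0.49 and 0.45, and Coa7, of complex IV assembly, at 0.51. Of 76 genes of the mitochondrial ribosome, which translates the subunits of the mitochondrial genome, 62 had higher means, with a median of 0.20. At a limma unadjusted p under 0.05 there were 12 higher and 1 lower of the 76 (17.1%, against 13.5% of all genes tested). The Et1 signals lay all above the controls for 14 of the 76 (10.7% of all genes) and all below for 3 (8.49% of all genes). Mrpl38 among them had signals of 247 ± 19.6 in control and 368 ± 14.9 in Et1 arrays (SD, n = 3), Mrps17 of 618 ± 167 in control and 1035 ± 222 in Et1 arrays (SD, n = 3) and Mrpl24 of 743 ± 111 in control and 1051 ± 73.9 in Et1 arrays (SD, n = 3). Between the high and low spike-in sets the ribosomal list had a median of 0.22 and the assembly factors of complexes II to V one of 0.25. The part of the set in the medians between groups was not tested.

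Among cytochrome c and the enzymes that feed electrons into the chain, 9 of 11 had higher means, with a median of 0.12. Dhodh, the pyrimidine enzyme that reduces ubiquinone, had signals of 86.5 ± 2.49 in control and 161 ± 23.2 in Et1 arrays (SD, n = 3) and a log2 difference of 0.88 (limma adjusted p = 0.0892). Regulators of mitochondrial biogenesis had 13 of 19 higher, with a median of 0.09. By smallest p, Twnk, the mitochondrial helicase, stood at 0.54, Ssbp1, which binds single-stranded mitochondrial DNA, at 0.59 and Tfam, which packages that DNA, at 0.32. The 6 lower ones were Nrf1 (-0.01), Gabpa (-0.16), Pprc1 (-0.05), Polrmt (-0.31), Polg (-0.22) and Hif1a, the oxygen-regulated factor (-0.34). The GABP genes Gabpb1 and Gabpb2 stood at 0.10 and 0.07. Ppargc1a and Ppargc1b lay below the filter. The lists of coenzyme Q synthesis (9 of 11 higher) and of nucleotide carriers and porins (4 of 6 higher) had medians of 0.07 and 0.13, and that of uncoupling proteins and antioxidants 0.04 (5 of 8 higher).

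The citric acid cycle list, with 23 tested genes, had 11 higher and 12 lower means and a median of -0.01. Its 5 genes at an unadjusted p under 0.05 (21.7%, against 13.5% of all genes tested) all had lower means. They were Pdk1, Pdk3, Pdk4, Pcx and Idh2. The list thus reaches beyond the cycle itself, to kinases of pyruvate dehydrogenase and to pyruvate carboxylase. Pdk1, a kinase that switches off pyruvate dehydrogenase, had signals of 157 ± 53.6 in control and 55.3 ± 10.2 in Et1 arrays (SD, n = 3) and a log2 difference of -1.47 (limma adjusted p = 0.0765). Pdk3 and Pdk4, kinases of the same family, stood at -0.43 and -0.77, and Pdk2 at 0.11. Pcx, pyruvate carboxylase, stood at -1.18 and Idh2, which makes NADPH in mitochondria, at -0.58. The Et1 signals lay all below the controls for 5 genes of this list (21.7%, against 8.49% of all genes) and all above for 0 (10.7% of all genes). These 5 were Pdk1, Pdk3, Pdk4, Pcx and the citrate synthase gene Cs, at -0.16.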

How the data were processed

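Each of 6 fibroblast cultures gave 1 Affymetrix Mouse430_2 array of its RNA. Per the submitters' processing notes the software was MAS5 (version and scale factor: not given in the sources used here). What was deposited is 1 linear intensity for each probe set and array. Each array was scaled to the geometric mean of the 2% trimmed means (139), and 4 zeros took the lowest positive intensity of the same array before log2. Of 45101 probe sets, 64 Affymetrix controls were left out, and the 22519 with a mean scaled signal at or above the median of 41.0 were tested. In the platform annotation 34945 probe sets had 1 symbol, 932 several and 9160 none. RefSeq's mouse gene table (GRCm38.p6) held 34741 of the first by identifier, and 0 symbols changed.

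Groups came from the labels. Limma 3.58.1 in R 4.3.3 (lmFit, eBayes with an intensity trend, no block) compared them, with Benjamini-Hochberg adjustment over all tested probe sets at 0.05, and was tested on simulated data. The members, gene lists and settings were chosen with earlier results of these data known. Named subunits were the 4 with the smallest p and the highest and lowest difference in each complex, the Sdh genes, paired isoforms and those whose probe sets differed most; 3 genes at most per other list. Other settings were quantile normalization, median centring, no filter or one at the 75th percentile, 50 added before log2, no trend, leaving out _x_at and _s_at probe sets, probe sets averaged per gene, each array left out, and the replicate number or the spike-in set (arrays parted at the largest gap in 27 control probe sets) as a block. The difference between spike-in sets was fitted after the data were seen. Array settings in the experiment files gave no further batch.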

Additional observations from a re-analysis of the deposited data

How the results depend on the processing

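The count of 78 probe sets past the threshold over the whole array (22 higher, 56 lower) became 44 with arrays centred on their medians (7 higher, 37 lower), 40 with no filter, 7 with no intensity trend and 868 when the fit held the spike-in set. It ran from 4 to 229 with 1 array left out: 4 without control replicate 1 or 2, 229 without control replicate 3, and 10, 46 and 6 without Et1 replicates 1, 2 and 3. Of the respiratory chain subunits, 0 passed in each setting tried except the spike-in block, where 2 did. With 1 array left out, the number of subunits with a higher mean ran from 45 to 65 of 76, and the median ran from 0.044 to 0.19 for all subunits, 0.068 to 0.21 for complex I, -0.092 to 0.12 for complex II, 0.099 to 0.28 for complex III, 0.038 to 0.18 for complex IV and -0.050 to 0.12 for complex V.

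With the replicate number as a block (the replicate block), 567 probe sets and 0 subunits passed. The numbers were not shown to pair the arrays: deviations from the group means correlated, for numbers 1 to 3, at -0.12, 0.44 and 0.45, and Et1 replicate 1 correlated best with control replicate 3, at 0.26.

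Of the 76 subunits, 16 changed sign with the spike-in block (15 to lower, 1 to higher), the largest of them Atp5c1 from 0.23 to -0.08. Median centring turned 9, all to lower and all under 0.05 before, and averaging probe sets per gene turned 4. Among the named subunits, those that turned with the spike-in block were Cox6c (-0.078), Cox7a2l (-0.0079), Sdha (-0.085), Sdhb (-0.010) and Sdhc (0.040). With median centring they were Cox7a2l (-0.022) and Sdha (-0.016), and with probe sets averaged per gene Cox6c (-0.18) and Sdha (-0.0020). Leaving out 1 array gave -0.054 to 0.28 for Cox6c, -0.12 to 0.45 for Cox7a1, -0.15 to 0.088 for Cox7a2, -0.029 to 0.094 for Cox7a2l, -0.29 to 0.011 for Cox6b2, -0.11 to 0.066 for Cox8a, -0.043 to 0.24 for Ndufa4, -0.16 to 0.040 for Atp5g1, -0.098 to 0.26 for Sdha, -0.25 to 0.037 for Sdhc and -0.26 to 0.030 for Sdhd. The causes were not tested. With 1 array left out, Cox6a2 ran from 0.71 to 0.94 and Ndufa10 from 0.32 to 0.50. The number of arrays limits the precision.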
